A study of Mus musculus with 6 samples.

Results

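The adhesion genes described here are 9 genes of mouse B cells: 7 integrin subunits (Itgb3, Itgav, Itga4, Itgb1, Itgb7, Itgal and Itgb2), the hyaluronan receptor Cd44 and the integrin ligand Icam1. They were taken by symbol, 9 of the 23420 genes in the files, and all 9 were among the 11233 genes with enough reads to be tested. The 9 were chosen by their log2 difference between stimulated and unstimulated samples in these data, so their changes are a description, with no p-value. No member is a selectin.

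The study compared B cells from wild-type (WT) BALB/c mice 4 hours after CpG with B cells kept without it, by RNA sequencing. WT_Stim is 3 samples of splenic B cells purified with magnetic beads and cultured with 10 µg/mL of CpG ODN 1826, a DNA oligonucleotide that activates Toll-like receptor 9. WT_UnStim is 3 samples of the same kind of cells from the same strain without CpG. The cells came from 3 mice aged 7 to 11 weeks, carried no engineered allele, and were cultured at 10 M cells per mL. Replicates 1 and 2 of each group were labelled female and replicate 3 male. The label text names 3 mice for both treatments and does not say outright that equal replicate numbers mark one mouse.

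Integrins are receptors made of an alpha and a beta chain that must pair to reach the cell surface. On lymphocytes, alphaL beta2 (LFA-1) binds ICAM-1 on other cells, alpha4 beta1 (VLA-4) binds VCAM-1 and fibronectin, alpha4 beta7 binds MAdCAM-1 in gut vessels, and alphav beta3 binds matrix proteins such as vitronectin. CD44 binds hyaluronan, a sugar polymer of the matrix, and is widely used as a marker of activated lymphocytes.

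Levels are log2 CPM, reads of a gene scaled to a common library total on a log2 scale, and log2FC is the stimulated minus the unstimulated mean of these levels. Under CpG, Cd44, Icam1, Itgal and Itgb1 were higher, and Itgb3, Itgb7, Itgav, Itga4 and Itgb2 were lower. The log2FC ran from -3.34 for Itgb3 to 2.95 for Cd44. The 3 stimulated samples did not overlap the 3 unstimulated samples for any of the 9 members, 4 above and 5 below. Over all tested genes, all stimulated samples lay above in 39.1% and all lay below in 38.6%, in these values that chose the members. At an adjusted p (Benjamini-Hochberg, limma) under 0.05, 4 members were higher, where 37.6% of tested genes were, and 5 were lower, where 36.7% were. With a log2FC beyond 1 as well, the counts were 3 higher against 15.8% of tested genes and 3 lower against 15.3%. Since the members were chosen on this same difference, nothing is read from any of these counts. The median log2FC of all tested genes was 0.0033, and the middle of the distribution (lower to upper quartile) ran from -0.62 to 0.65. The authors' quantile normalization gives all samples a like distribution, so this median lies near 0 by construction.

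**Figure D1:**
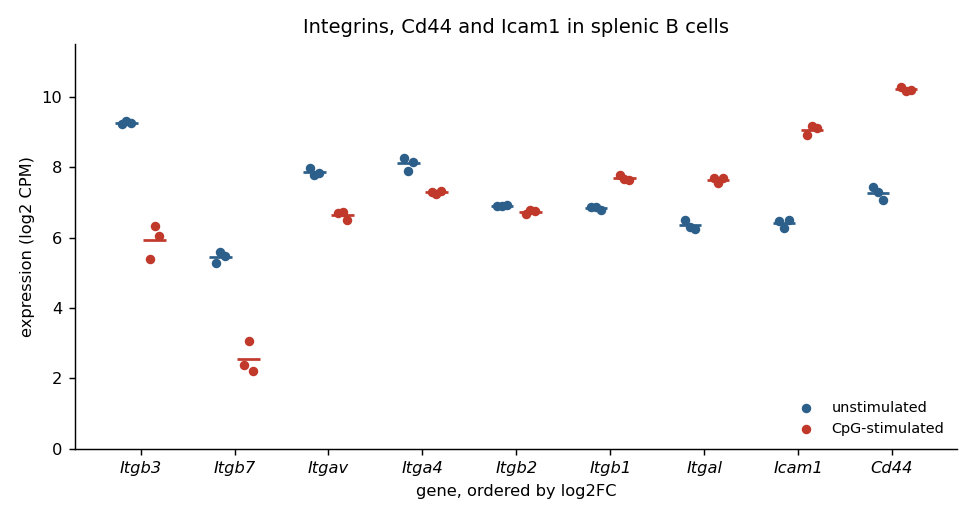
Level of each of the 9 members in every sample, in log2 CPM on the vertical axis, with stimulated and unstimulated samples side by side and a bar at each group's mean. The Cd44 and Icam1 points of the stimulated samples sit above 8.9, the unstimulated ones below 7.5, and Itgb3 and Itgb7 show the opposite order.

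The RNA was from a bulk preparation, so fewer cells of a type and less RNA per cell cannot be told apart. All 10 B cell markers found in the files (Ighm and Ighd were not analysed) exceeded the level of 10 reads in the mean of all samples, and their summed level was 3288 to 3739 CPM in the stimulated and 4601 to 5253 CPM in the unstimulated samples. Of the T cell markers, 2 of 8 were above 10 reads (Cd5 and Lck), and Cd3e, Cd4, Cd8a and Cd8b1 were at or under 3 reads in every sample. None of 9 endothelial and stromal markers and 1 of 6 NK cell markers was above 10 reads. The endothelial and stromal markers summed to 1.73 to 2.08 CPM in the stimulated and 2.90 to 5.94 CPM in the unstimulated samples. The NK cell markers summed to 1.60 to 2.66 CPM and 3.08 to 3.48 CPM in those groups. The T cell markers summed to 125 to 142 CPM in the stimulated and 72.2 to 92.8 CPM in the unstimulated samples. Of the myeloid markers, 6 of 11 were above 10 reads, with sums of 177 to 193 CPM and 200 to 246 CPM in those groups. Dendritic markers (4 of 8 above 10 reads) summed to 116 to 135 CPM in the stimulated and 46.7 to 55.4 CPM in the unstimulated samples. The highest T cell marker was Lck, at 7.05 log2 CPM with and 6.38 without CpG. Among myeloid markers it was Mpeg1 (7.32 and 7.64), and among dendritic markers Zbtb46 (6.06 and 4.43). Some markers moved against their sums, such as Cd5, Emr1, Ccr9, Tek and Klrb1c, so a sum is not the level of a cell type. The part of these cell types in the results was not tested. All 4 erythroid markers above 10 reads were highest in replicate 2 of both groups, 393 and 440 CPM summed against 46.4 to 80.9 CPM in the other samples. Without both replicates 2, the member log2FC values ran from -3.52 for Itgb3 to 2.99 for Cd44, with every direction as above.

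Upstream sequence was at hand for 6 of the 9 members (RefSeq, GRCm38.p6, the 250 bases before the start of the gene), and none for Itgb3, Itgal and Itgb2. The sequences of Icam1 and Cd44, the most raised members, and of Itgb7, which fell most among those with an entry, are shown 5′ to 3′ on the gene's strand. Capitals mark letters that match GGGNNNNNCC or GGAANNNCC, a pair of forms of the kappaB motif bound by NF-kappaB, on either strand. The regions are chr9:21015690-21015939 (plus strand) for Icam1, chr2:102901666-102901915 (minus strand) for Cd44 and chr15:102231936-102232185 (minus strand) for Itgb7.
Icam1: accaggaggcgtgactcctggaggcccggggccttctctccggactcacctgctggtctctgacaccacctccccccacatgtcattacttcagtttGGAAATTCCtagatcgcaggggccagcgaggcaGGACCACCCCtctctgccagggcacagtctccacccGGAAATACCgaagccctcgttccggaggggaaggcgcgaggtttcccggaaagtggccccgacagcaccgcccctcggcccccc
Cd44: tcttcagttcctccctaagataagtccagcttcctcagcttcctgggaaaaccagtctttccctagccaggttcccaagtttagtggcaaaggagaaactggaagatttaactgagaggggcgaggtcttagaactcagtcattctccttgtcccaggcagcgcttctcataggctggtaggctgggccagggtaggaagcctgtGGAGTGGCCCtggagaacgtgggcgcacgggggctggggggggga
Itgb7: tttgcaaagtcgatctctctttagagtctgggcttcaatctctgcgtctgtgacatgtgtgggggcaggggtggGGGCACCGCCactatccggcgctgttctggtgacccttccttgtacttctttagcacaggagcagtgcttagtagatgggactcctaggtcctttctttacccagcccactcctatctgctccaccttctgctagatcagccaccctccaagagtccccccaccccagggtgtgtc
The Icam1 sequence held GGAANNNCC at 153 bases before the start, where the letters GGAAATTCC read the same on both strands, and again at 84 bases before it. It also held GGGNNNNNCC on the reverse strand at 120 bases. Cd44 held GGGNNNNNCC at 45 bases on the reverse strand and Itgb7 at 176 bases on the forward strand. GGGNNNNNCC was in 4 of the 6 member sequences (Itgav, Itgb7, Cd44 and Icam1) and in 48.7% of 27025 genes, or 66.7% of the 8400 tested genes with an entry. GGAANNNCC was in 2 of 6 (Itgb1 and Icam1), in 17.6% of all and in 21.7% of tested genes. TGANTCA, the AP-1 motif, was in none of the 6, in 7.82% of all and in 5.08% of tested genes. A match of letters is not a bound site, and members that rose and members that fell both held them.

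Itgb3 encodes the beta3 chain, known from platelets with alphaIIb and from other cells with alphav. Its level was 9.22, 9.31 and 9.25 log2 CPM in unstimulated replicates 1, 2 and 3, and 5.40, 6.33 and 6.04 in the stimulated ones. All stimulated samples lay at least 2.88 below the unstimulated ones, and they varied more (SD 0.48, n = 3) than the unstimulated (SD 0.05, n = 3). The log2FC was -3.34 (SE 0.19), a level 10.1-fold lower under CpG and the largest fall of the 9. The difference within replicate numbers was -3.82, -2.98 and -3.22. Because Itgb3 is a platelet gene, the platelet and megakaryocyte markers were summed. The 11 markers together reached 8.50 to 9.40 CPM in the stimulated and 11.6 to 16.3 CPM in the unstimulated samples, with 6 of 11 above 10 reads, and Pf4 and Ppbp had means between -0.62 and 0.79 log2 CPM. Itga2b, the platelet partner of Itgb3, was at 2.21 log2 CPM without CpG, and Itgb3 was 122-fold above it per kb of exon (78.4-fold with the longest transcript as the length).

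Itgav, the alphav chain, was at 7.96, 7.78 and 7.84 log2 CPM without CpG and at 6.69, 6.74 and 6.51 with it. The groups were 1.04 apart at their nearest samples. The log2FC was -1.21 (SE 0.08), or 2.32-fold lower. Both chains of alphav beta3 thus had lower RNA in the stimulated samples, the beta chain by more than the alpha chain.

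Itga4, the alpha4 chain shared by VLA-4 and alpha4 beta7, read 8.25, 7.90 and 8.16 log2 CPM without CpG and 7.30, 7.24 and 7.33 with it. Its log2FC was -0.81 (SE 0.09), 1.76-fold lower. Itgb7, its gut-homing partner, read 5.28, 5.60 and 5.48 log2 CPM without CpG and 2.37, 3.06 and 2.22 with it. Its log2FC was -2.90 (SE 0.19), or 7.47-fold lower, the second largest fall of the 9. Itgb1, the partner of Itga4 in VLA-4 and the beta chain with the most alpha partners, moved the other way, from 6.87, 6.86 and 6.80 log2 CPM to 7.77, 7.68 and 7.62. The Itgb1 log2FC was 0.85 (SE 0.06), 1.80-fold higher. So of the chains that pair with alpha4, beta7 RNA was lower and beta1 RNA higher under CpG, while alpha4 RNA itself was lower.

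Itgal, the alphaL chain of LFA-1, rose from 6.50, 6.29 and 6.24 log2 CPM without CpG to 7.71, 7.55 and 7.69 with it. The log2FC was 1.30 (SE 0.08), 2.47-fold higher. Itgb2, the beta2 chain that LFA-1 shares with other leukocyte integrins, differed least of the 9. It read 6.89, 6.91 and 6.92 log2 CPM without CpG and 6.66, 6.78 and 6.77 with it, a gap of 0.113 between the nearest samples. The Itgb2 log2FC was -0.17 (SE 0.06), 1.13-fold lower, and it was no longer among the 5 counted as lower when stimulated replicate 1 or 3, or unstimulated replicate 2 or 3, was left out (log2FC -0.19 to -0.13). The LFA-1 pair therefore had a raised alpha chain beside a nearly level beta chain.

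Cd44, the hyaluronan receptor, read 10.29, 10.16 and 10.20 log2 CPM with CpG against 7.45, 7.29 and 7.06 without it. Its log2FC of 2.95 (SE 0.09), 7.72-fold higher, was the largest rise. Icam1 encodes ICAM-1, the immunoglobulin-like ligand of LFA-1, and read 8.93, 9.16 and 9.10 log2 CPM with CpG against 6.46, 6.28 and 6.51 without it. The Icam1 log2FC was 2.65 (SE 0.08), 6.27-fold higher. The receptor chain Itgal and its ligand Icam1 were both higher in the same samples.

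**Figure D2:**
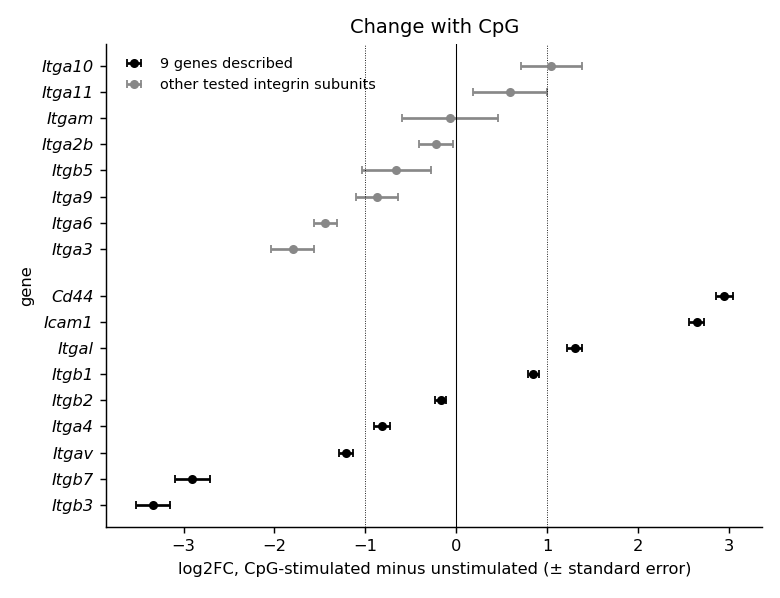
Log2FC (stimulated minus unstimulated, horizontal axis) of the members and of the other integrin subunits tested, with bars of 1 SE. Cd44 at 2.95 and Icam1 at 2.65 lie farthest right, Itgb3 at -3.34 farthest left, and Itgb2 at -0.17 nearest to 0 among the members.

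Levels of different genes were compared after dividing by exon length (log2 CPM per kb of the union of annotated exons). Without CpG, Itgb3 led at 6.70 ± 0.05 (SD, n = 3), followed by Itgb2 at 5.30, Itgb1 at 4.81, Cd44 at 4.51, Itgav at 4.43, Itga4 at 4.30, Icam1 at 4.29, Itgb7 at 3.98 and Itgal at 3.63. The ranges of neighbours overlapped for Cd44 and Itgav, for Itgav and Itga4, and for Itga4 and Icam1. With CpG, Cd44 led at 7.46 ± 0.07, followed by Icam1 at 6.94, Itgb1 at 5.66, Itgb2 at 5.13, Itgal at 4.93, Itga4 at 3.49, Itgb3 at 3.36, Itgav at 3.22 and Itgb7 at 1.08. Overlap was seen there for Itga4 and Itgb3 and for Itgb3 and Itgav. The order depended on the length used. With the longest transcript in place of the union of exons, Icam1 moved from rank 7 to rank 3 without CpG, Itgav from 5 to 4, Itgb1 from 3 to 5 and Cd44 from 4 to 7. With CpG, Itgb3 and Itgav changed places (ranks 7 and 8), as did Itgb2 and Itgal (4 and 5), and Cd44 and Icam1 differed by 0.0056 in place of 0.52. Itgb3 stood first without CpG by either length, and at rank 7 or 8 with it.

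Partner chains were then set side by side per kb within each sample. Itgal was below Itgb2 by 1.49, 1.72 and 1.79 on the log2 scale without CpG and by 0.06, 0.34 and 0.18 with it. Itgb2 RNA was 3.18-fold that of Itgal in unstimulated and 1.14-fold in stimulated samples, so the LFA-1 chains were closer to each other under CpG. Itga4 minus Itgb1 was -0.51 ± 0.19 without and -2.18 ± 0.10 with CpG (SD, n = 3). Itga4 minus Itgb7 was 0.32 ± 0.33 without and 2.41 ± 0.49 with CpG. Both alpha4 pairs were thus less even in the stimulated samples, with beta1 in excess of alpha4 and beta7 short of it. The beta1 RNA was 1.78-fold that of beta7 without CpG and 23.9-fold with it. The size of these differences depended on the length used. With the longest transcript, Itga4, Itgb1 and Itgb7 read 4.82, 4.91 and 4.03 without CpG and 4.00, 5.76 and 1.13 with it.

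Of the beta chains that can pair with alphav, Itgb3 was 4.80-fold above Itgav without CpG and 1.10-fold with it. Itgav minus Itgb3 was -2.26 ± 0.14 and -0.14 ± 0.50 on the log2 scale in those groups, and its sign with CpG differed among samples (0.43, -0.46 and -0.39). Itgav minus Itgb1 was -0.38 ± 0.09 without CpG and -2.44 ± 0.09 with it. Among these partners Itgb3 exceeded Itgb1 by 3.69-fold without CpG, while Itgb1 exceeded Itgb3 by 4.92-fold with it. Itgb5 was far below Itgav in both groups (Itgav minus Itgb5 6.23 ± 0.26 without and 5.68 ± 0.43 with CpG), and Itgb6 and Itgb8 stood at the level of no reads. With the longest transcript as the length, Itgb3 and Itgav read 6.73 and 5.04 without CpG and 3.39 and 3.83 with it.

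**Figure D3:**
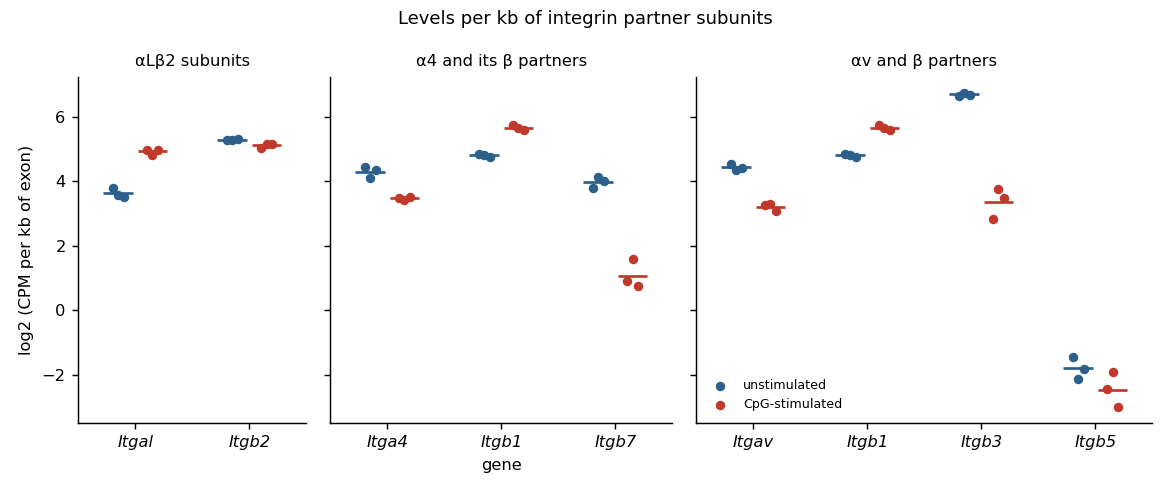
Level per kb of exon (log2 of CPM per kb, vertical axis) of integrin chains that pair with each other, in each of the 3 stimulated and 3 unstimulated samples, with a bar at each group's mean. Itgal lies nearer to Itgb2 in the stimulated samples, Itgb1 lies farther above Itga4 and Itgb7 farther below it, and Itgb3 falls from 6.70 to 3.36, below Itgb1.

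In the genome (GRCm38, GENCODE M21), 3 members lie on chromosome 2: Itga4 (chr2:79255426-79333123, plus strand), Itgav (chr2:83724397-83806916, plus strand) and Cd44 (chr2:102811141-102901665, minus strand). The others are Itgb3 (chr11:104608000-104670476, plus), Itgb1 (chr8:128685654-128733200, plus), Itgb7 (chr15:102215995-102231944, minus), Itgal (chr7:127296260-127335138, plus), Itgb2 (chr10:77530252-77565708, plus) and Icam1 (chr9:21015985-21028817, plus). Itga4 overlaps Cerkl on the opposite strand. The strand setting of the counting is not given in the sources used here, and Cerkl was at -0.74 ± 0.08 log2 CPM without and -1.25 ± 0.04 with CpG, below the level of 10 reads in the stimulated samples.

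Icam1 is followed on the same strand by Icam4 after 555 bases and by Icam5 after a further 1477 bases. Icam4, an ICAM known from red cells, was at -2.64, -0.84 and -1.87 log2 CPM without CpG and -0.11, 0.26 and 0.56 with it (adjusted p = 0.0041, limma). Icam5, an ICAM known from neurons, was at -1.36, -2.82 and -1.47 without and 0.43, 0.23 and 0.17 with CpG (adjusted p = 0.0018, limma). Both rose, from a level of a few reads (3 reads are -2.34 log2 CPM). Icam2, the ICAM found on resting lymphocytes and endothelium, did not pass the test, at 4.92 ± 0.12 without and 5.03 ± 0.06 with CpG.

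Profiles most like those of the extreme members were found by the Euclidean distance over the 6 samples, each gene centred on its mean. For Cd44 the nearest tested genes were Igfbp4 (distance 0.13), Itln1 (0.24) and Plxna1 (0.26). Those nearest to Itgb3 were Jakmip1 (0.15), Rapgef4 (0.29) and Mxd4 (0.34).

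Other adhesion genes were followed in 9 lists, 197 genes of which 196 were found in the files and 141 were tested. Of the 141, 37 were higher and 67 lower at an adjusted p under 0.05, and 37 did not pass. These are 26.2% and 47.5% of the 141, beside 37.6% and 36.7% of all tested genes. Beyond a log2FC of 1, 20 were higher and 35 lower, or 14.2% and 24.8% beside 15.8% and 15.3%. Their median log2FC was -0.25, beside 0.0033 over all tested genes. The lists were drawn up with earlier results of these samples known, so these counts are a description.

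**Figure D4:**
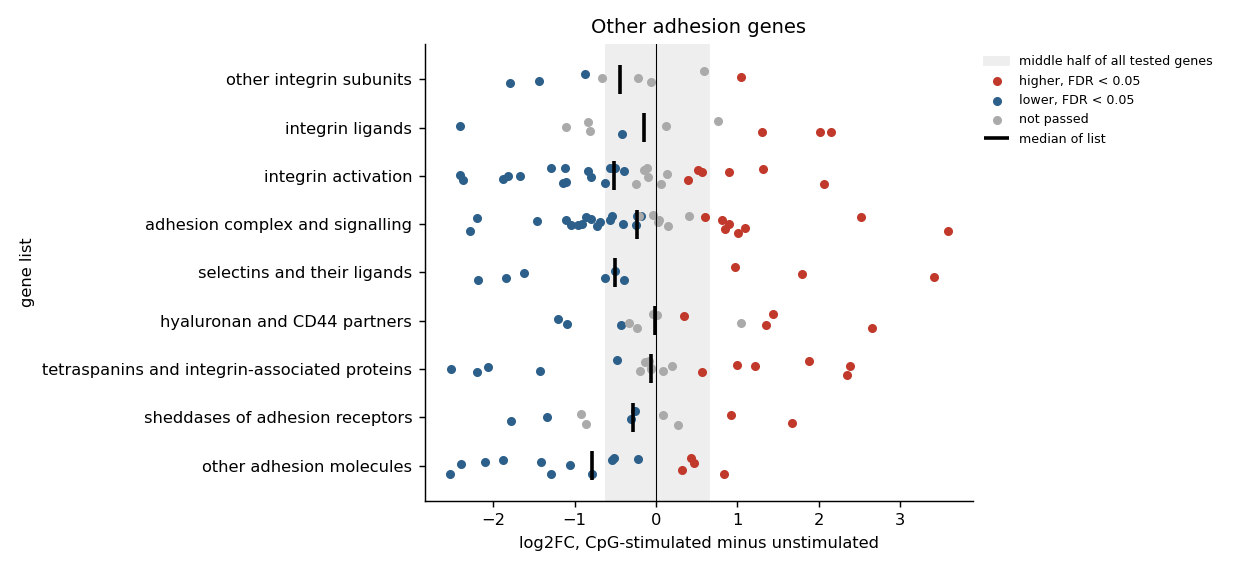
Log2FC of every tested gene of the 9 adhesion lists (horizontal axis), coloured by the limma call, with a black bar at each list's median and a grey band from the lower to the upper quartile of all tested genes, -0.62 to 0.65. The medians run from -0.79 for the other adhesion molecules to -0.01 for the hyaluronan and CD44 partners.

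Of 20 integrin subunits outside the members, 8 were tested, 1 rose, 3 fell and 4 did not pass (median log2FC -0.44). The 12 untested subunits, Itgax and Itgae among them, had no value above -0.12 log2 CPM. Itga6, a laminin receptor chain, fell from 3.82, 3.61 and 3.62 log2 CPM to 2.10, 2.31 and 2.33 (log2FC -1.44, SE 0.13, adjusted p = 3.3e-06). Itga3, another laminin receptor chain, fell by 1.80 (adjusted p = 6.1e-05), to 0.40 ± 0.41 log2 CPM. Itga9 fell by 0.87 (adjusted p = 0.0068). The Itga9 call did not hold under every alternative (highest adjusted p 0.072, limma). These 3 alpha chains that pair with beta1 or beta4 were lower while Itgb1 was higher. Not all other tested alpha chains fell, and the log2FC was above 0 for Itga10 and Itga11. Itga10, a collagen receptor chain, rose by 1.05 from -0.83 ± 0.41 log2 CPM (adjusted p = 0.017), but lost the call without stimulated replicate 1, unstimulated replicate 3 or both replicates 2, and with looser or no filters on reads (adjusted p at most 0.0597). With 10 reads required in every sample it was not tested. Itga2b, Itga11, Itgam and Itgb5 did not pass, with log2FC values of -0.22, 0.60, -0.07 and -0.66 and adjusted p-values of 0.31, 0.21, 0.92 and 0.14. The Itgam log2FC changed sign with single samples left out (-0.72 to 0.42). The study's bead mix for other mice included an antibody to CD11b, the product of Itgam, and whether it was used here is not stated.

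Of 18 integrin ligands, 10 were tested, 3 rose, 2 fell and 5 did not pass (median log2FC -0.15). Besides Icam4 and Icam5, Jam2, a junction protein that binds VLA-4, was higher by 1.30 (SE 0.42, adjusted p = 0.018), from -1.39 ± 0.55 log2 CPM. This call was lost without stimulated replicate 1 or 3 or unstimulated replicate 2. Thbs1, the matrix protein thrombospondin, fell by 2.41 (SE 0.47, adjusted p = 9.8e-04), from 1.72 ± 0.31 to -0.69 ± 1.07 log2 CPM. Its log2FC was -1.35 after adding 1 to the CPM. Fibronectin (Fn1) fell by 0.41. The summed platelet and stromal markers were lower with CpG too, and whether this bears on Thbs1 or Fn1 was not tested. The count of lowered ligands was 1 without stimulated replicate 1 or unstimulated replicate 1 or 3.

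Integrins bind firmly only after activation from inside the cell, in which the small GTPase Rap1 recruits talin and kindlin to the beta chain. Of 32 genes of this machinery, 28 were tested, 6 rose, 16 fell and 6 did not pass (median log2FC -0.51). Talin (Tln1) and kindlin (Fermt3), which bind the beta chain, each had a log2FC of -1.11. Rap1b, the main Rap1 GTPase of blood cells, rose from 9.10, 9.27 and 9.16 log2 CPM to 10.36, 10.59 and 10.52 (log2FC 1.32, SE 0.08, adjusted p = 2.1e-07). Skap1, an adaptor of Rap1 signalling, rose by 2.06 (adjusted p = 7.1e-06). Among the regulators of Rap1, the exchange factor Rasgrp2, which loads Rap1 with GTP, fell by 2.37 (SE 0.25, adjusted p = 1.3e-05). Sipa1, which switches Rap1 off, fell from 7.23, 7.25 and 7.44 to 4.82, 4.88 and 5.01 log2 CPM (log2FC -2.41, SE 0.08, adjusted p = 1.6e-08). Rap1b thus rose while the activator Rasgrp2 and the inhibitor Sipa1 both fell. Rap1a did not pass (log2FC -0.11). Other regulators went both ways, with log2FC values of 0.40 for Rapgef6, 0.89 for Rap1gap2 and -1.29 for Rapgef2. Rassf5, the Rap1 effector RAPL that binds alphaL, fell by 1.82 (adjusted p = 5.0e-08). Pip5k1c, the kinase that makes the lipid bound by talin, fell by 1.88, and Cyth1, the beta2-binding cytohesin, by 1.67.

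Of 34 genes of adhesion complexes and their signalling, 31 were tested, 8 rose, 17 fell and 6 did not pass (median log2FC -0.23). Actn1, the actin crosslinker alpha-actinin, rose from 2.21, 1.79 and 2.04 to 5.96, 5.33 and 5.51 log2 CPM (log2FC 3.59, SE 0.17, adjusted p = 6.1e-08). Tns1, a tensin that binds beta chains, rose by 2.52, and focal adhesion kinase (Ptk2) by 1.09 (adjusted p = 3.3e-06). The actin regulator Vasp rose as well (adjusted p = 7.3e-07). Ptk2b (Pyk2), a relative of Ptk2, fell from 8.94 ± 0.04 to 7.48 ± 0.14 log2 CPM (adjusted p = 9.1e-08). Zyx, a focal adhesion adaptor, fell by 2.29, Evl, a relative of Vasp, by 2.21, Git2 by 1.10 and the kinase Fyn by 1.04. So 2 pairs of related genes moved in opposite directions, Ptk2 with Ptk2b and Vasp with Evl.

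Of 16 selectins, selectin ligands and ligand-building enzymes, 9 were tested, 3 rose and 6 fell (median log2FC -0.50). Selplg, the P-selectin ligand, was higher by 0.97, from 6.14 ± 0.15 to 7.11 ± 0.11. Sele, an endothelial selectin, fell by 1.62 from 0.43 ± 0.31 log2 CPM. The summed endothelial and stromal markers were lower with CpG too, and whether this bears on Sele was not tested. Of the enzymes, the sialyltransferase St3gal4 rose by 1.80 (adjusted p = 4.4e-06) and the branching enzyme Gcnt1 fell by 2.18 (adjusted p = 9.1e-07). The fucosyltransferase Fut4 rose to 0.43 ± 0.79 from -2.99 ± 0.92 log2 CPM, a mean under the level of 3 reads, so no fold is given.

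Of 19 genes around hyaluronan and CD44, 12 were tested, 4 rose, 3 fell and 5 did not pass (median log2FC -0.01). Has3, a hyaluronan synthase, rose by 1.43 (adjusted p = 2.0e-04) and the hyaluronidase Hyal2 by 1.35 (adjusted p = 4.4e-06). Vcan, a hyaluronan-binding proteoglycan, rose by 2.65 from -1.52 ± 1.12, under the level of 10 reads, to 1.14 ± 0.81 log2 CPM (adjusted p = 0.0021). Its log2FC was 1.22 after adding 1 to the CPM, and its adjusted p was 0.060 with no filter on reads. Of the proteins that link CD44 to actin, ezrin (Ezr) did not pass (10.35 ± 0.12 log2 CPM without and 10.35 ± 0.18 with CpG), moesin (Msn) had a log2FC of -0.43 and radixin (Rdx) one of 0.35. The hyaluronidase Hyal3 fell by 1.20 (adjusted p = 0.020) and the splicing regulator Esrp2 by 1.09 (adjusted p = 0.036). Both were at low levels, and without unstimulated replicate 1 or 3 the count of lowered genes was 1 and not 3.

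Tetraspanins are membrane proteins that hold integrins in clusters. Of 18 of them and other lateral partners, all were tested, 6 rose, 5 fell and 7 did not pass (median log2FC -0.06). Cd81, a tetraspanin of many cell types, rose from 6.51, 6.35 and 6.45 to 9.10, 8.56 and 8.80 log2 CPM (log2FC 2.38, SE 0.12, adjusted p = 7.6e-08). Cd82 rose by 1.21, Tspan2 by 2.35 and Tspan33 by 1.88. The Tspan33 call did not hold under every alternative (highest adjusted p 0.065, limma). Cd151, a partner of laminin-binding integrins, fell by 1.43 (adjusted p = 4.8e-05). Tspan13 fell by 2.52 and Tspan14 by 2.20. Plaur, the urokinase receptor, fell by 2.07.

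Of 15 membrane proteases that cut adhesion receptors and their inhibitors, 10 were tested, 2 rose, 4 fell and 4 did not pass (median log2FC -0.28). Adam10, known to cut CD44, fell from 8.56, 8.43 and 8.57 to 7.16, 7.19 and 7.20 log2 CPM (log2FC -1.33, SE 0.06, adjusted p = 5.2e-08). Adam15 fell by 1.79 to -0.96 ± 0.48 log2 CPM. Adam8 rose by 1.67, from -0.26 ± 0.43 log2 CPM (adjusted p = 4.7e-04). Adam17, a protease that frees TNF from the cell surface, had a log2FC of -0.30.

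The remaining adhesion molecules had the lowest median of the 9 lists, -0.79. Of 25 listed, 15 were tested, 4 rose and 11 fell. No rise exceeded a log2FC of 1 and 7 of the falls did. Cd93 fell by 2.54 (SE 0.13, adjusted p = 9.9e-08), Cd22, a sialic acid-binding inhibitory receptor of B cells, by 2.40 (SE 0.10, adjusted p = 4.1e-08), and its relative Siglecg by 2.10 (adjusted p = 1.6e-07). Cd99l2 fell by 1.88 and Ceacam1 by 1.42. The sialic acid-binding receptors Cd22 and Siglecg thus fell in the samples in which Cd44 and Icam1 were raised.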

How the data were processed

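RNA was measured in 6 samples, 3 per group. Per the labels and the study's methods, the authors used FastQC 0.11.7, Trim Galore 0.6.5, STAR 2.6.1a (mm10) and featureCounts (Subread 2.0.1). The deposited values are log2 CPM after quantile normalization and voom by the authors. No counts are held, so depth per library is unknown. The level of no reads (-5.152) implies a common library of 17.8 M reads. Values also carry a shift per gene shared by equal replicate numbers (1316 to 1503 values per sample lie below -5.152). It cancels in log2FC where both groups hold the same replicate numbers. It does not cancel with a single sample left out, nor fully with pseudocounts on CPM. Values and calls from those fits can include part of it. Genes above the level of 10 reads (-0.76) in at least 3 samples were fitted with limma 3.58.1 (R 4.3.3, lmFit, eBayes with trend), with Benjamini-Hochberg adjustment over all 11233. The fit was tested on simulated data with 200 of 11233 genes changed by a log2FC of 1.5 in size. It called 172 of these and 10 unchanged genes. That simulation had independent samples and far fewer changed genes than these data, so it does not vouch for the calls here.

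Equal replicate numbers had correlated deviations from their group means (r = 0.43, 0.22 and 0.30, against -0.28 to 0.03 for unequal numbers). All 3 were over 0.1, so equal numbers may mark pairs. They share a labelled sex, and the shift by number can also give such correlations. The SE, adjusted p-values and calls given are from the fit without pairing, and a block by replicate number is an alternative fit.

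The members and lists were chosen with earlier results of these data known. Named were the members, every other tested integrin subunit, up to 5 genes per list at each end beyond a log2FC of 1, and the nearest profiles of the members at each end. Tln1, Fermt3, Rap1a, Rapgef2, Rapgef6, Rap1gap2, Fn1, Selplg, Icam2, Ezr, Msn, Rdx, Adam17 and Cerkl were named after their values were seen. Single cell type markers were too. Exon lengths are from GENCODE M21. Alternatives were other filters, pseudocounts on CPM, no variance trend, other scalings, the replicate block and leaving out samples. Count models were not run, since the values are not counts. One listed gene is counted but not reported here by name.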

Additional observations from a re-analysis of the deposited data

How the results depend on the processing

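All 144 values of the members' log2FC under the alternatives kept their direction, and the lost calls of Itgb2 are given with its values. Genes higher with a log2FC over 1 among the 141 other adhesion genes numbered 20, and 13 with 10 reads required in every sample. Over all tested genes, 3905 to 4390 were higher and 3793 to 4287 lower under the alternatives. The replicate block gave 4390 and 4287, and 41 higher and 70 lower adhesion genes, and changed 7 of the 141 calls (Fgb, Col4a1, Stk4, Git1, Stab2, Cd47 and Adam19); lowered integrin ligands then numbered 4 and not 2. Of 849 values for named adhesion genes, 822 kept direction and side of the threshold, and 22 in 8 genes (Esrp2, Hyal3, Icam4, Itga10, Itga9, Jam2, Tspan33 and Vcan) lost the call, for reasons that were not tested. The Itgam log2FC of -0.07 changed sign, to between -0.72 and 0.42 with single samples left out and to 0.50 without both replicates 2, a choice made after seeing the data. With the longest transcript as length, Itgal minus Itgb2 with CpG was 0.099, Itgav minus Itgb1 without CpG 0.13, and Itgav minus Itgb3 with CpG 0.44; the last lay between -0.43 and 0.019 with single samples left out. Scaling by the median or a trimmed mean shifted the median of all genes by -0.004 and -0.015. The values were already quantile-normalized, so these scalings could change little. A change in total RNA per cell cannot be seen in such values. Group means under 10 reads limit Icam4, Icam5, Jam2, Fut4, Itga10, Vcan, Hyal3, Sele and Adam15. With 1 added to the CPM, their log2FC values were, in that order, 0.73, 0.78, 0.48, 1.07, 0.46, 1.22, -0.39, -0.71 and -0.86.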
